A study of Mus musculus with 61 samples.

Results

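The proteasome genes were taken as every row of the muscle count table whose symbol begins with Psm, continues with a letter from a to g and ends in a number. The immunoproteasome genes Psmb8, Psmb9 and Psmb10 were left out. This gave 44 of 19462 genes. By the role of their products they were 8 genes of the 20S alpha ring, 7 of the 20S beta ring, 6 ATPases and 11 non-ATPase subunits of the 19S cap, 5 activators and inhibitors, and 7 chaperones that assemble the particle. Psma8, the gene of a testis form of an alpha subunit, had 0 to 6 counts per library, with a median of 1, and was listed at 0 in 18 of 61 libraries. It did not pass the filter on low counts, and the other 43 genes were tested.

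The proteasome is the main protease for ubiquitin-tagged proteins in the cytosol and nucleus. Its barrel, the 20S core, has outer rings of alpha subunits that form the gate and inner rings of beta subunits that hold the active sites. The 19S cap binds ubiquitin chains, removes them, unfolds the substrate with its ATPase ring and feeds it into the core. In skeletal muscle this system breaks down much of the contractile protein, and its subunit genes are known to be induced together, with ubiquitin ligases such as Fbxo32 and Trim63, in fasting and other wasting states.

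The data are 61 RNA sequencing libraries of mouse skeletal muscle. They come from 8 inbred strains, those crossed to found the Diversity Outbred mice, all on a high-fat, high-sugar diet labelled with 45 percent fat. The strains, named as in the labels, were AJ, B6, 129, NZO and WSB with 8 libraries each and NOD, Cast and PWK with 7 each. Cast, PWK and WSB are wild-derived and the other 5 are classical laboratory strains. The labels gave no batch, age, sex or control strain. Nor did they say whether each library of a strain was from its own animal. The p-values therefore reflect only how these libraries vary, which may in part be technical. The question was how the transcript levels of the proteasome differ with strain on this diet.

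Library totals ran from 17.1 M to 65.2 M counts (M, mega), with a median of 33.7 M. Muscle fibre markers were high in all libraries, with a log2 summed level of 16.9 to 17.61 CPM (counts scaled to a common library size of 1 M, after TMM adjustment). In bulk tissue, fewer cells of a type and less RNA per cell cannot be told apart. Levels are given as mean ± SD over libraries. Differences are on the log2 scale with a standard error (SE), for a strain against the mean of the other 7, in which each strain has the same weight. Each adjusted p is from edgeR's quasi-likelihood test with Benjamini-Hochberg adjustment over all 16682 genes tested, and a gene counts as higher or lower where it is under 0.05.

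Libraries numbered 5 and 6 of the Cast strain, called Cast_5 and Cast_6 here, stood apart in most proteasome genes. Cast_5 was among the 2 highest of 61 libraries in 32 of the 43 genes and Cast_6 in 29, against 17.4% and 19.8% of all genes tested. The library with the next most such places, 129_4, had 4. Counting only the 31 tested genes of the 20S core and 19S cap, the numbers were 28 and 27. In the other direction, B6_5 was the lowest library of B6 in the summed 20S and 19S genes. A ribosomal RNA gene, Rn18s-rs5, took 46.3% of its counts, against at most 9.76% elsewhere. Results that rest on Cast_5, Cast_6 or B6_5 are given with and without them, unless the text says otherwise.

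**Figure D1:**
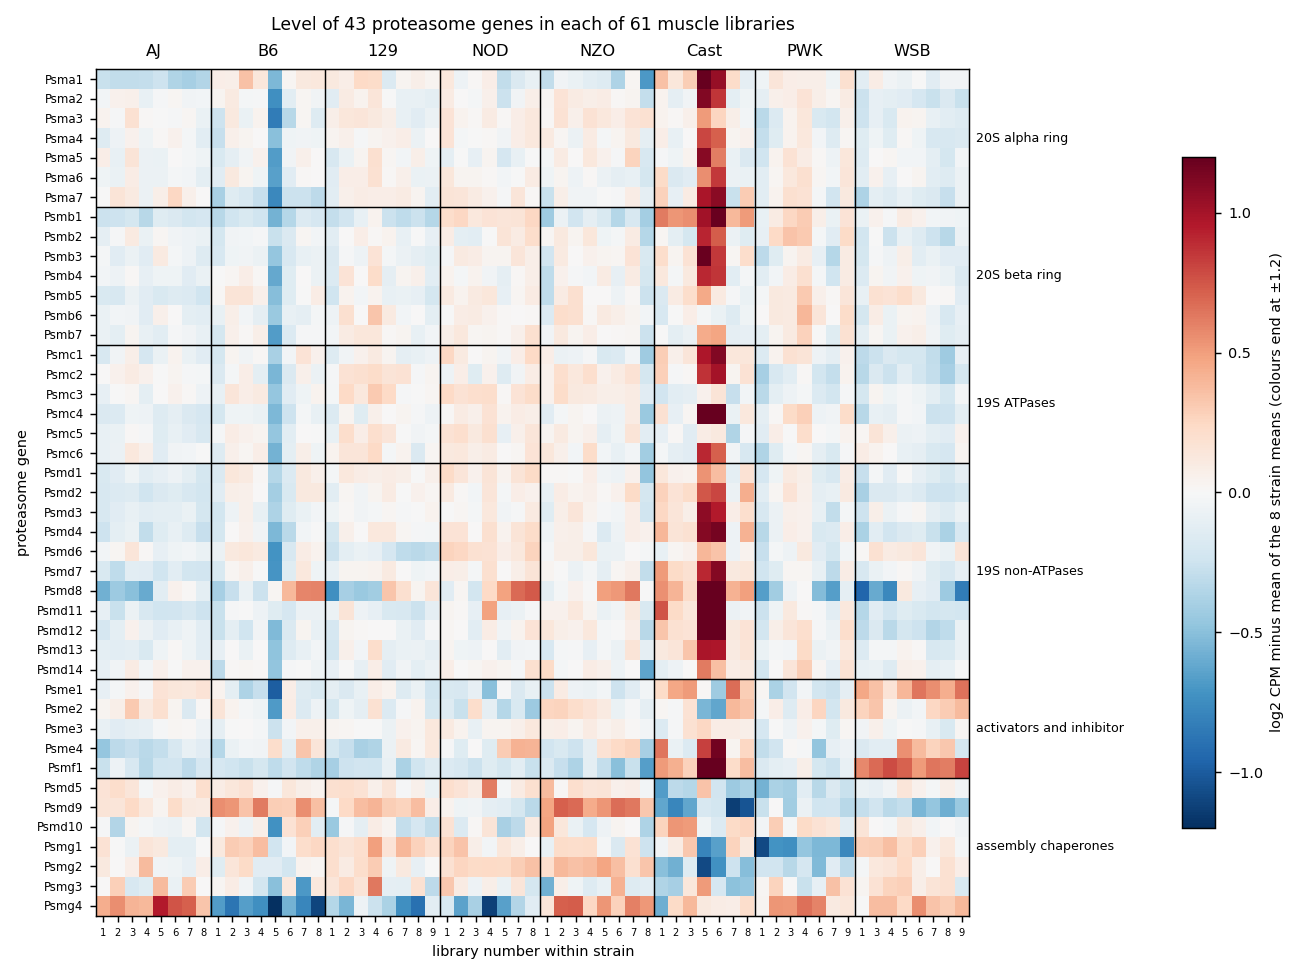
Level of the 43 tested proteasome genes (rows, grouped by role) in each of 61 muscle libraries (columns, grouped by strain). Colour is log2 CPM minus the mean of the 8 strain means, red higher and blue lower, ending at 1.2 in either direction. The columns of Cast_5 and Cast_6 are red through most rows of the 20S core and 19S cap, the column of B6_5 is blue, and the chaperone rows at the foot differ by strain in other patterns.

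The genes of the particle itself were abundant. Per kilobase of the principal transcript, which allows a rough comparison of different genes, the 20S and 19S genes ranged from 17.7 CPM for Psma2 to 118 CPM for Psmb7. The counts cover all transcripts of a gene, so these values depend on the length taken. It was 2911 bases for Psma2 and 1160 for Psmb7. The assembly chaperones lay below all of them, from 3.45 CPM per kilobase for Psmd5 to 10.1 for Psmg2. Among the regulators, Psme4, the gene of the PA200 activator, reached 58.0 CPM per kilobase, while Psmf1, which encodes the inhibitor PI31, had 3.93.

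Strain differences were common but small in these genes. Of the 43 genes, 37 differed among the 8 strains, while 85.5% of all genes tested did, so the share was near the background. Psmc5, Psme2, Psmc6, Psmd14, Psmb7 and Psmg3 did not pass, with adjusted p from 0.0514 for Psmc5 to 0.321 for Psmg3. The distance between the highest and the lowest strain mean had a median of 0.52 log2 units over the 43 genes, against 0.87 over all genes tested and 0.64 over the 10626 genes at least as abundant as the lowest of them. A distance of at least 1 log2 unit was found for 4 proteasome genes, Psmg4, Psmd9, Psmd8 and Psmf1, and for 43.5% of all genes. With Cast_5 and Cast_6 left out the median was 0.36 log2 units, against 0.81 over all genes. A distance of at least 1 log2 unit was then found for 2 proteasome genes and for 40.8% of all genes.

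The roles differed in how far the strains spread. The median distance was 0.34 log2 units in the alpha ring and 0.33 in the beta ring, 0.43 among the ATPases and 0.58 among the non-ATPases. It was 0.64 for activators and inhibitor and 0.87 for the chaperones. Strain held 65.3% of the variance of log2 CPM in the median chaperone gene, 30.8% in the median alpha gene and 45.4% in the median gene of all tested. These values by role are given for all libraries only. Without Cast_5 and Cast_6 the median distance over the 43 genes fell from 0.52 to 0.36 log2 units. The distances by role and their order may thus rest in part on the pair. Cast was the highest strain for 29 of the 43 genes, where it was for 26.1% of all genes, and for 15 without Cast_5 and Cast_6, when it was for 23.6% of all genes. B6 was the lowest strain for 14 genes, against 7.94% of all genes, but for 3 once B6_5 was left out as well, against 7.82%.

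The summed 20S genes had a mean between 852 ± 108 CPM in B6 (SD, n = 8) and 955 ± 29.3 CPM in NOD (n = 7) in all strains but Cast, whose mean was 1114 ± 283 CPM (n = 7). Without B6_5 the B6 mean was 888 ± 46.3 CPM (n = 7), and WSB was then lowest at 877 ± 44.9 CPM. Its distance from AJ (883 ± 27.6 CPM) was less than the SDs. Without Cast_5 and Cast_6 the Cast mean was 949 ± 38.1 CPM (n = 5), and NOD was then highest. The means of NOD, Cast and PWK (945 ± 87.1 CPM) then differed by less than their SDs. In Cast, the libraries Cast_1, Cast_2, Cast_3, Cast_7 and Cast_8 had 1002, 922, 975, 911 and 937 CPM, while Cast_5 and Cast_6 had 1565 and 1485. The first 5 lay within the range of the other strains and the last pair above every other library of the study. The summed 19S genes also stood high in Cast_5 and Cast_6, with 3274 and 3314 CPM, against 1747 to 2079 CPM in the other Cast libraries and strain means of 1579 ± 84.2 CPM in WSB to 1884 ± 90.6 CPM in NOD elsewhere. Here Cast_1, at 2079 CPM, was above every library outside Cast as well, the highest of which had 2007 CPM. Cast stayed highest for the 19S sum without the pair, at 1919 ± 128 CPM (n = 5), but its distance from NOD was less than the SDs. The ratio of the 19S to the 20S sum was lowest in PWK (1.79 ± 0.04), WSB (1.80 ± 0.04) and AJ (1.84 ± 0.03) and highest in Cast (2.06 ± 0.11) and B6 (1.98 ± 0.10). Without B6_5, the highest B6 library, B6 had 1.96 ± 0.08 and lay below NOD (1.97 ± 0.07). The ratio was not tested. In Cast it ran from 1.92 in Cast_7 to 2.23 in Cast_6, and Cast_5 lay within the range of the other Cast libraries.

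**Figure D2:**
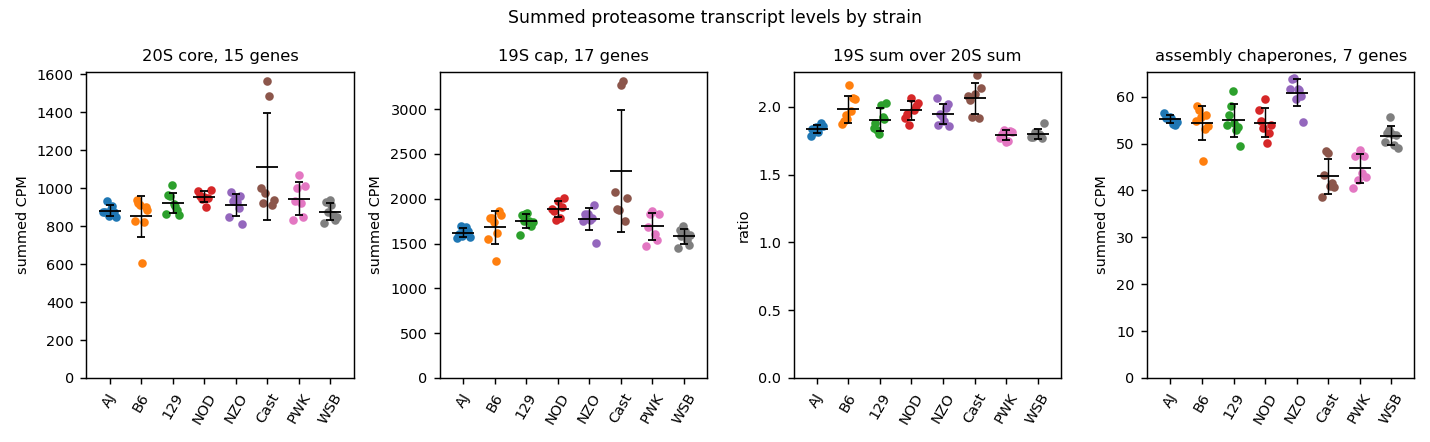
Summed levels in CPM of the 20S core genes, the 19S cap genes and the assembly chaperones, and the ratio of the 19S to the 20S sum, by strain (points, libraries; bars, mean and SD). In the first pair of panels Cast_5 and Cast_6 stand alone, at 1565 and 1485 CPM and at 3274 and 3314 CPM. The chaperone panel shows Cast and PWK lowest and NZO highest.

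In the alpha ring, all 7 tested genes were higher in Cast with all libraries, where 33.8% of all genes were higher. Psma1, an alpha subunit gene on chromosome 7 (114264606 to 114276118, GRCm38), led with a difference of 0.58 (SE 0.08, adjusted p = 2.77e-08). Its Cast libraries ran from 42.8 through a median of 56.5 to 105 CPM. Without Cast_5 and Cast_6 it was the 1 alpha gene still called, at 0.21 (adjusted p = 0.0109), where 25.9% of all genes were higher. Its range then overlapped every other strain but AJ. AJ was the low strain of Psma1, with 34.8, 37.4 and 38.8 CPM as lowest, median and highest library and a difference of -0.37 (SE 0.09, adjusted p = 0.000442). NZO was also lower, by 0.25 on the log2 scale (adjusted p = 0.0222). Psma7 was lower in B6, with 46.5 ± 5.64 CPM against a mean of 60.8 CPM over the other strains, a difference of -0.37 (SE 0.08, adjusted p = 0.000305). B6_5 was its lowest library, at 33.9 CPM, and the call held without it.

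In the beta ring, Psmb1 differed most. It encodes a non-catalytic beta subunit and lies on chromosome 17 (15475721 to 15498276). Its Cast libraries had 96.7, 90.2, 92.1, 126, 143, 82.1 and 89.2 CPM, in the order 1, 2, 3, 5, 6, 7 and 8, and the highest library of any other strain had 77.1 CPM. It was the 1 proteasome gene with every library of a strain above every other library, which 1.32% of all genes showed for Cast. The difference of Cast was 0.81 (SE 0.05, adjusted p = 2.87e-19) and stayed at 0.59 without Cast_5 and Cast_6 (adjusted p = 5.85e-15). NOD was the second strain of Psmb1, with 68.5, 70.2 and 74.4 CPM as lowest, median and highest library, a difference of 0.20 (SE 0.06, adjusted p = 0.00621). B6 (51.6 ± 4.47 CPM), NZO (53.0 ± 4.87), AJ (53.6 ± 2.10) and 129 (54.1 ± 5.04) were all lower, by 0.25 to 0.32 on the log2 scale. The means of those 4 strains differed by less than their SDs.

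The genes of the catalytic beta subunits moved little. Psmb5, of the chymotrypsin-like site, had strain means of 49.2 ± 1.73 CPM in AJ to 59.6 ± 4.59 CPM in PWK and was lower in AJ, by 0.20 on the log2 scale (adjusted p = 0.00464). Psmb6, of the caspase-like site, was higher in PWK, where the libraries ran from 68.1 through 73.6 to 89.4 CPM (difference 0.16, SE 0.05, adjusted p = 0.00333). Psmb7, of the trypsin-like site, had strain means of 127 ± 19 CPM in B6 to 145 ± 28.7 CPM in Cast, and its test among strains gave an adjusted p of 0.171. None of the 3 was called in Cast, with or without Cast_5 and Cast_6. In these libraries Psmb6 had 67.1 and 64.5 CPM, inside the range of 49.9 to 89.4 CPM of the 54 libraries of the other strains, whereas Psmb7 had 185 and 188 CPM, above all of them. Psmb5 had 75.5 CPM in Cast_5, above the highest of the 54 at 68.5 CPM, and 59.4 CPM in Cast_6, inside their range.

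Among the 19S ATPases, which unfold the substrate, 4 of 6 were higher in Cast with all libraries, where 33.8% of all genes were. Psmc4 had 144 and 153 CPM in Cast_5 and Cast_6, 55.7 to 67.7 CPM in the other Cast libraries and at most 73.0 CPM elsewhere. Without them only Psmc1 of the 6 remained higher (0.18, adjusted p = 0.00768), while Psmc3 (-0.20, adjusted p = 0.00344) and Psmc5 (-0.15, adjusted p = 0.0221) were lower. Of all genes, 25.9% were then higher and 25.7% lower. Psmc3 was higher in NOD (154 ± 7.58 CPM, difference 0.20, SE 0.05) and in 129 (148 ± 14.2 CPM, difference 0.13, SE 0.05), and lower in PWK (125 ± 9.67 CPM). The range of Psmc3 over the strain means was 0.31 log2 units, and the libraries of these strains overlapped. Of its exon bases, 8.2% overlap Slc39a13 on the opposite strand, and whether the counts used strand is not given in the sources used here.

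The non-ATPase subunits hold the ubiquitin receptors and the lid. Of these 11 genes, 10 were higher in Cast, where 33.8% of all genes were. Without Cast_5 and Cast_6, 8 remained so, and 25.9% of all genes were higher. Psmd2, the scaffold that docks ubiquitin-like proteins, had 318, 293, 304, 438, 456, 250 and 353 CPM in the Cast libraries in the order given above, and at most 307 CPM elsewhere. Its difference was 0.45 with all libraries (SE 0.06, adjusted p = 1.12e-09) and 0.23 without those 2 (adjusted p = 0.000408). Psmd11, a lid subunit gene, had 302 and 293 CPM in Cast_5 and Cast_6, 168 CPM in Cast_1 and 95.6 to 117 CPM in the other 4, against a median of 93.6 CPM over the 54 other libraries. Its difference fell from 0.84 (SE 0.10, adjusted p = 2.33e-10) to 0.28 (adjusted p = 0.000509) when the pair was left out. Psmd4, the ubiquitin receptor, and Psmd12, a lid subunit, went from 0.61 to 0.26 and from 0.64 to 0.23.

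Psmd8, another lid subunit gene, varied widely within strains. With strain means taken off, it moved with the Y-linked transcript Ddx3y (correlation 0.81 over 61 libraries, a description). The part of this in the strain differences was looked at only in a fit with Xist and Ddx3y as covariates. There Psmd8 kept its calls in Cast, PWK and WSB and was also called in AJ, NOD and NZO. The Cast libraries held 172, 156, 137, 332, 352, 157 and 165 CPM, and the strain means elsewhere ran from 88.0 ± 24.3 CPM in WSB to 145 ± 38.7 CPM in NOD. It was higher in Cast (0.90, SE 0.14, adjusted p = 1.27e-07, and 0.46 without the pair, adjusted p = 0.00861). It was lower in WSB (-0.53, SE 0.15, adjusted p = 0.00344) and in PWK (-0.42, SE 0.16, adjusted p = 0.0269). Psmd6 was higher in NOD, with 104, 111 and 118 CPM as lowest, median and highest library and a difference of 0.21 (SE 0.06, adjusted p = 0.00366). It was lower in 129, by 0.24 on the log2 scale (adjusted p = 0.000578). Psmd12 was lower in WSB, at 74.6 ± 4.80 CPM (-0.30, SE 0.08, adjusted p = 0.00256).

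Promoter sequence was looked at because most 20S and 19S genes stood high together in Cast_5 and Cast_6. Subunit genes are known to be induced by Nfe2l1 (NRF1), which binds elements with the letters TGACNNNGC or TGAGNNNGC, and many carry the CCAAT box that the NF-Y factor binds. The windows were the 250 bases before the RefSeq start (GRCm38.p6), found for 36 of the 44 genes. On either strand, 12 of the 36 genes (33.3%) held TGACNNNGC or TGAGNNNGC, and 25.7% of 27025 genes did. The box CCAAT was in 12 of the 36 (33.3%) and in 37.5% of all genes. Below are the 100 bases before the start of 5 genes, 5′ to 3′ on the strand of each gene, with matches to these letters in capitals. They were chosen after the values were seen, among genes whose window ends at or before the annotated gene start. Psma2, Psma6 and Psmd11 stood high in Cast_5 and Cast_6, with levels above every library outside Cast, and Psmb5 and Psmb6 were not called in Cast. Psmb5 was nonetheless above every library outside Cast in Cast_5 (75.5 CPM), though not in Cast_6 (59.4 CPM).
Psma2, chr13:14613142-14613241, GRCm38.p6, plus strand: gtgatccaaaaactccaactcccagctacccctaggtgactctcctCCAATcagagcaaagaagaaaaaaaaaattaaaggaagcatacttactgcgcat
Psma6, chr12:55384122-55384221, GRCm38.p6, plus strand: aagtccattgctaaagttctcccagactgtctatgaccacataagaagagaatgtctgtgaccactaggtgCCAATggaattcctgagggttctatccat
Psmd11, chr11:80428515-80428614, GRCm38.p6, plus strand: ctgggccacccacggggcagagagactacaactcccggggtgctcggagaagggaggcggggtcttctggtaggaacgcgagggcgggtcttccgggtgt
Psmb5, chr14:54617996-54618095, GRCm38.p6, minus strand: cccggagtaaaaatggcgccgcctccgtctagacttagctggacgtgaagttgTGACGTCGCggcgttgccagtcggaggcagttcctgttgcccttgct
Psmb6, chr11:70525257-70525356, GRCm38.p6, plus strand: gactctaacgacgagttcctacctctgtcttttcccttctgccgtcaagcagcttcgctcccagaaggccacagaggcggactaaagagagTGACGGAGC
In these 100 bases TGACNNNGC was found in Psmb5 and Psmb6 and the box CCAAT in Psma2 and Psma6, and Psmd11 held neither. These 5 do not stand for the whole set. In both Cast_5 and Cast_6, 29 of the 44 genes were above every library outside Cast. The share of all genes above them in both was not computed. Cast_5 was among the 2 highest of 61 libraries in 17.4% of all genes tested, and Cast_6 in 19.8%. Of the 29 genes, 24 had a window, and 7 of these held TGACNNNGC or TGAGNNNGC (Psma4, Psma6, Psmb3, Psmc2, Psmc6, Psmd1 and Psmd12). Of the other 15 genes, 12 had a window and 5 held it (Psmb5, Psmb6, Psmd5, Psmd9 and Psmg4). Psmc6 and Psmd12 held both forms. The box CCAAT was in 10 of the 24 and 2 of the 12. A match describes the letters only, and binding was not measured.

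Over all roles, 30 of the 43 genes were higher in Cast and 3 lower, where 33.8% and 27.9% of all genes were. The median difference was 0.30, against 0.04 over all genes. Without Cast_5 and Cast_6 there were 15 higher and 6 lower, with 25.9% and 25.7% of all genes, and the median was 0.05. All 15 of these, and 3 of the 6, were among the calls with all libraries. Leaving out Cast_5 or Cast_6 alone gave 24 higher and 4 lower in each case, where 31.9% of all genes were higher and 25.7% or 25.3% lower. The genes that stayed higher without both were Psma1, Psmb1, Psmb3, Psmc1, Psmd2, Psmd3, Psmd4, Psmd7, Psmd8, Psmd11, Psmd12, Psmd13, Psmd10, Psme1 and Psmf1. Except for Psmb1, Psmd10, Psmd8, Psme1 and Psmf1, their differences were then between 0.15 and 0.28.

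**Figure D3:**
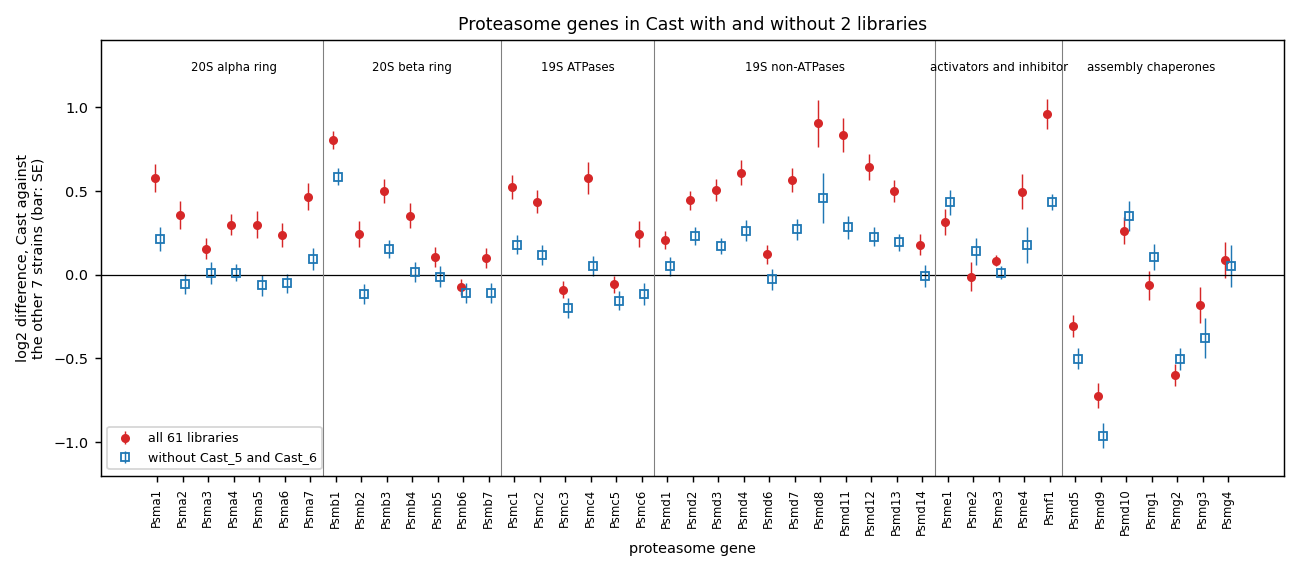
Difference of Cast from the mean of the other 7 strains, in log2 units with its SE, for the 43 genes by role, with all 61 libraries (filled circles) and without Cast_5 and Cast_6 (open squares). Most 20S and 19S genes drop towards 0, Psmb1 goes from 0.81 to 0.59, and Psmd9 goes from -0.72 to -0.96.

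Other genes of the pathway moved with the pair, and their part in the result was not tested. Fbxo32, the gene of the muscle ubiquitin ligase atrogin, had 2580, 1535, 727, 2900, 3950, 339 and 925 CPM in the Cast libraries in the same order, and 226 to 930 CPM in the 54 libraries of other strains. Trim63, of the ligase MuRF, had 3152, 1129, 291, 2998, 3682, 115 and 222 CPM, against 114 to 1098 CPM elsewhere. Cast_5, Cast_6 and Cast_1 were thus the 3 highest libraries of the study for both ligases, and the summed 20S level of Cast_1, 1002 CPM, was within the range of other strains, while its summed 19S level, 2079 CPM, was above it. Foxo3, a transcription factor gene of muscle wasting, had 138 and 178 CPM in Cast_5 and Cast_6, 165 CPM in Cast_1 and at most 57.2 CPM outside Cast. Zfand5, whose product stimulates the 26S particle, had 690 and 700 CPM in the pair and 617 CPM in Cast_1, with at most 260 CPM outside Cast. Nploc4, of the p97 unfoldase cofactors, had 358 CPM in each of the pair and at most 149 CPM outside Cast. Nfe2l1, the activator of subunit genes, had 514 and 524 CPM in the pair, inside the range of 352 to 796 CPM in other strains.

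In depth, ribosomal and mitochondrial share and muscle fibre markers the pair lay within the other libraries. Cast_5 held 36.7 M counts and Cast_6 held 26.8 M. Rn18s-rs5 took 5.64% and 6.34% of them, and genes of the mitochondrial genome 10.6% and 9.6%. The log2 summed muscle fibre markers were 17.31 and 17.24, within 16.9 to 17.61 over all libraries. Lymphocyte markers summed to 1.15 and 0.87 on the log2 scale, near the lower end of 0.87 to 7.41 over all libraries. Ddx3y, a Y-linked transcript, was above Xist in both, as in Cast_7 and Cast_8, but the pair stood apart in its level. On the log2 CPM scale it had 7.65 and 7.36 in Cast_5 and Cast_6, 6.51 and 6.58 in Cast_7 and Cast_8, and at most 6.52 outside Cast. With Xist and Ddx3y as covariates no Cast call was lost, and Psmd6 was called as well. The part of this difference in the result was not tested further.

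The assembly chaperones followed other strains than the subunits they assemble. Their summed level was lowest in Cast (43.1 ± 3.76 CPM, n = 7) and PWK (44.7 ± 3.08, n = 7), intermediate in WSB (51.7 ± 2.06, n = 8) and highest in NZO (60.9 ± 2.93, n = 8), with 54.4 to 55.2 CPM in the other 4 strains. The Cast and PWK means differed by less than their SDs, and so did those of the 4 strains in the middle. Unlike the subunit sums, the Cast sum was not set by the pair, which had 48.0 and 40.9 CPM in a range of 38.5 to 48.4 CPM.

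Psmd9, which helps to build the ATPase ring of the 19S base, had the largest F of the 43 genes (F = 42.64, adjusted p = 7.83e-19). It lies on chromosome 5 (123169413 to 123250131). NZO was highest, with 11.4, 13.7 and 15.1 CPM as lowest, median and highest library, followed by B6 (11.2, 12.5 and 14.1). Cast was lowest, with 4.19, 5.94 and 8.01 CPM, followed by WSB (6.11, 7.03 and 7.82). Every library of NZO and B6 was above every library of Cast, WSB and PWK. The differences were 0.64 in NZO (SE 0.06, adjusted p = 2.01e-12), 0.50 in B6 (SE 0.06, adjusted p = 4.34e-09) and 0.28 in 129 (SE 0.06, adjusted p = 0.000503). They were -0.72 in Cast (SE 0.07, adjusted p = 2.50e-12), -0.46 in WSB (SE 0.07, adjusted p = 2.17e-07) and -0.26 in PWK (adjusted p = 0.00259). Without Cast_5 and Cast_6, which were the highest Cast libraries, Cast stood at -0.96. Psmd9 shares 25.5% of its exon bases with Gm26745 on the opposite strand, so its level is uncertain.

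Psmg1 and Psmg2 encode the pair of chaperones that start the alpha ring. Psmg2 was highest in NZO (11.9, 13.4 and 14.5 CPM as lowest, median and highest library) and NOD (11.8, 12.3 and 13.4), and lowest in Cast (4.93, 7.32 and 9.37) and PWK (7.24, 8.88 and 9.53). The ranges of NZO and NOD did not overlap those of Cast and PWK. The differences were 0.38 in NZO (SE 0.06, adjusted p = 4.44e-07), 0.28 in NOD (SE 0.06, adjusted p = 0.00033), -0.60 in Cast (SE 0.07, adjusted p = 2.18e-11) and -0.33 in PWK (adjusted p = 3.22e-05). Psmg1 was low in PWK alone among the called strains, with 2.33, 2.99 and 3.57 CPM against strain means of 4.79 to 5.92 CPM elsewhere (-0.80, SE 0.09, adjusted p = 1.11e-10). It was highest in 129, with 5.47, 5.67 and 6.96 CPM as lowest, median and highest library (0.28, SE 0.08, adjusted p = 0.00447). No PWK library reached the lowest library of AJ, B6, 129, NOD, NZO or WSB. In Cast its libraries had 4.80, 5.29, 6.16, 2.84, 3.14, 5.94 and 5.36 CPM, so that the lowest 2 were Cast_5 and Cast_6.

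Psmg4, which pairs with Psmg3 in the same step, had the widest range of all, 1.42 log2 units. AJ was highest, with 3.45, 3.87 and 5.28 CPM as lowest, median and highest library (0.64, SE 0.10, adjusted p = 3.39e-07), and B6 lowest, with 0.819, 1.62 and 1.85 CPM (-0.98, SE 0.11, adjusted p = 2.80e-10). NZO (0.53), PWK (0.42) and WSB (0.35) were higher too, while NOD (-0.56) and 129 (-0.48) were lower. These levels are a few CPM. On the variance-stabilised values that the authors deposited, the differences of Psmg4 were 0.50 to 0.54 times as large, with the same calls. Psmg3 was not called in any strain with all libraries. Psmd5, a further chaperone of the base, was lower in PWK (12.1 ± 1.24 CPM, -0.37, SE 0.07, adjusted p = 6.16e-06) and in Cast (12.5 ± 3.03 CPM, -0.30, adjusted p = 7.22e-05, and -0.50 without the pair). It was higher in NOD (17.3 ± 2.66 CPM, 0.23, SE 0.06, adjusted p = 0.00571), where NOD_4 alone had 23.0 CPM.

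**Figure D4:**
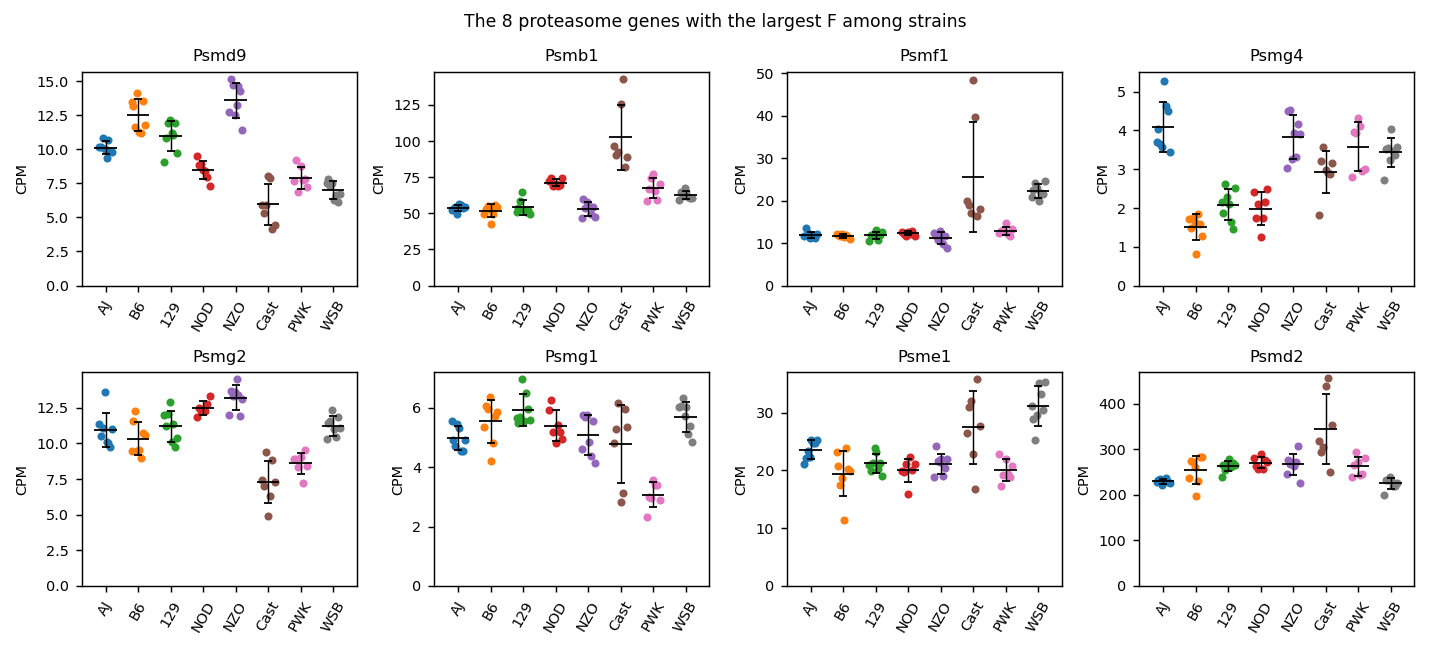
Level in CPM of the 8 proteasome genes with the largest F among strains, by strain (points, libraries; bars, mean and SD). Psmb1 is above 82 CPM in all Cast libraries, Psmf1 is near 22 CPM in WSB and near 12 CPM in most other strains, and the chaperone genes Psmd9, Psmg4, Psmg2 and Psmg1 each follow their own order of strains.

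Pomp, a maturation factor of the 20S core whose symbol falls outside the naming pattern, ran opposite to the chaperone sum in Cast and PWK. It stood at 75.6 ± 3.74 CPM in Cast and 68.3 ± 6.02 CPM in PWK, and at 39.5 to 43.2 CPM in the mean of the other 6 strains. The difference of Cast was 0.75 (SE 0.04, adjusted p = 1.79e-23) and that of PWK 0.59 (SE 0.04). The difference of Cast was 0.71 without Cast_5 and Cast_6 (adjusted p = 1.64e-18).

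Among the activators, Psme1 and Psme2 encode the alpha and beta subunits of PA28, a ring known to be induced by interferon gamma that opens the core without a 19S cap. Psme1 was highest in WSB, with 25.3, 30.8 and 35.4 CPM as lowest, median and highest library (0.52, SE 0.07, adjusted p = 2.71e-08), and every WSB library was above every library of B6, 129, NOD, NZO and PWK. It was also higher in Cast (27.5 ± 6.31 CPM, 0.31, adjusted p = 0.000377), where Cast_5 and Cast_6 were the lowest libraries at 22.8 and 16.8 CPM, and without them the difference was 0.43. B6 (19.4 ± 3.89 CPM) and PWK (20.1 ± 1.92 CPM) were lower. The B6 call of Psme1 was lost without B6_5, its lowest library. Psme2 was higher in WSB at 15.5 ± 1.85 CPM (0.20, adjusted p = 0.0356), with ranges that overlapped all other strains. Psme2 shares a sequence of 99.4% identity with Psme2b, so its level is uncertain.

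Psmf1, of the inhibitor, lies on chromosome 2 (151715812 to 151744186). WSB had 19.9, 22.2 and 24.6 CPM as lowest, median and highest library, and AJ, B6, 129, NOD, NZO and PWK had means of 11.2 to 12.9 CPM. Cast had 19.9, 18.9, 17.0, 48.3, 39.6, 16.4 and 18.1 CPM in the order 1, 2, 3, 5, 6, 7 and 8. Every WSB and every Cast library was above every library of the other 6 strains. The differences were 0.74 in WSB (SE 0.09, adjusted p = 3.55e-10) and 0.96 in Cast (SE 0.09, adjusted p = 9.72e-14), which became 0.43 without the pair (adjusted p = 1.78e-10). NZO (-0.39), B6 (-0.32), 129 (-0.30) and AJ (-0.28) were called lower than the mean of the other strains, which holds WSB and Cast. Psme4 was lower in AJ at 307 ± 25.0 CPM (-0.32, SE 0.10, adjusted p = 0.0141) and higher in Cast (0.50, adjusted p = 3.52e-05), where Cast_6, Cast_5 and Cast_1 had 819, 649 and 572 CPM. The Cast call of Psme4 was lost without Cast_5 and Cast_6. Psme3, of the nuclear PA28 gamma, had the smallest range of the 43 genes, with strain means of 49.2 to 54.0 CPM, and a difference of 0.09 in Cast (adjusted p = 0.0301) that was not called without the pair.

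Seen by strain, the other contrasts held fewer calls. In AJ 1 gene was higher and 9 lower, where 16.8% and 14.9% of all genes were, and the median difference was -0.07. Of 6 macrophage markers 5 were higher in AJ and 0 lower, and their log2 sum had a median of 7.37 (7.03 to 7.64), the highest of the strains, where the others had medians of 6.1 to 6.94. The part of macrophages in the AJ differences was not tested. In B6 1 was higher and 7 lower, against 15.0% and 11.2%. Without B6_5, 2 were higher and 4 lower, against 13.0% and 9.24%, and Psma3, Psmd12 and Psme1 were no longer called. In 129 there were 3 and 4, against 14.2% and 11.4%. NZO had 3 higher, all chaperones (Psmd9, Psmg4 and Psmg2), and 3 lower (Psmf1, Psmb1 and Psma1), against 14.6% and 12.7%. In PWK 2 were higher, Psmg4 and Psmb6, and 8 lower, of which 4 were chaperones, against 20.6% and 20.3%.

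NOD had 7 genes higher and 1 lower, where 11.9% and 9.79% of all genes were. The 7 were Psmb1, Psmc3, Psmc5, Psmd1, Psmd6, Psmd5 and Psmg2, with differences of 0.13 to 0.28. In the summed 20S genes NOD was the strain after Cast with all libraries and the first without Cast_5 and Cast_6, and in the summed 19S genes it was the strain after Cast in both cases. Without the pair these means of NOD and Cast differed by less than their SDs, as did the 20S means of NOD and PWK. Without Cast_5 and Cast_6, which enter the mean NOD is compared with, 13 genes were higher and 4 lower in NOD, against 14.8% and 10.4% of all genes. Psma7, Psmc1, Psmc4, Psmc6, Psmd4 and Psmd8 were then also higher. NOD was then the highest strain for 12 of the 43 genes, against 7.8% of all genes, and Cast for 15, against 23.6%.

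WSB had 5 genes higher and 12 lower, against 21.4% and 17.0% of all genes. The 5 were Psmf1, Psme1, Psme2, Psmg4 and Psmg1, all outside the 20S and 19S parts. Of the 12 lower genes, 11 were 20S or 19S genes and the other was Psmd9, and 6 of the 12 were non-ATPase subunits. Lymphocyte markers stood high in some WSB libraries: 10 of 10 were higher in this strain, and their log2 sum ran from 2.14 to 7.19, while in AJ it ran from 2.89 to 3.36. Adipocyte markers moved with WSB too: 7 of 8 were higher and 1, Lep, lower, and their log2 sum had a median of 9.54 (8.66 to 10.4) in WSB, the highest of the strains, where the others had medians of 7.82 to 9.17. The part of adipocytes in the WSB differences was not tested. Another fit left out the 7 libraries of the study that were highest in lymphocyte markers, 3 of them from WSB. There, 4 proteasome genes were higher and 6 lower in WSB, against 15.2% and 13.0% of all genes. With the sums of lymphocyte, hepatocyte and keratinocyte markers as covariates there were 6 and 5, against 17.7% and 14.6%. Psmf1, Psme1, Psmg1, Psmg4, Psmd9, Psmc1, Psmc2 and Psmd2 were called in each case.

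For the wild-derived strains against the classical ones, 18 genes were higher and 5 lower, where 32.3% and 26.5% of all genes were. With the Cast pair left out these were 9 and 7, with 29.8% and 27.8% of all genes. The SEs and calls of this contrast take each library as a replicate. With 3 strains against 5, they do not show how much strains of the same kind vary among themselves. With all libraries, Psmf1 (0.72, SE 0.06), Psmb1 (0.43, SE 0.04) and Psmg4 (0.40, SE 0.07) were highest. Psmd9 (-0.67, SE 0.05), Psmg2 (-0.38, SE 0.04) and Psmd5 (-0.32, SE 0.04) were lowest. The Cast difference of Psmf1 fell to 0.43 without the pair. Psmg4 was highest in AJ and also higher in NZO, both classical, and was not called in Cast. All 22 wild-derived libraries were above the median of the classical ones for Psmb1 and below it for Psmd9. The 3 wild-derived strains did not act as a block: PWK lacked the high Psmf1 of Cast and WSB (12.9 ± 0.97 CPM), and WSB lacked the low Psmg2 of Cast and PWK (11.2 ± 0.70 CPM). Whether reads of each strain mapped equally well to the reference build was not tested.

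**Figure D5:**
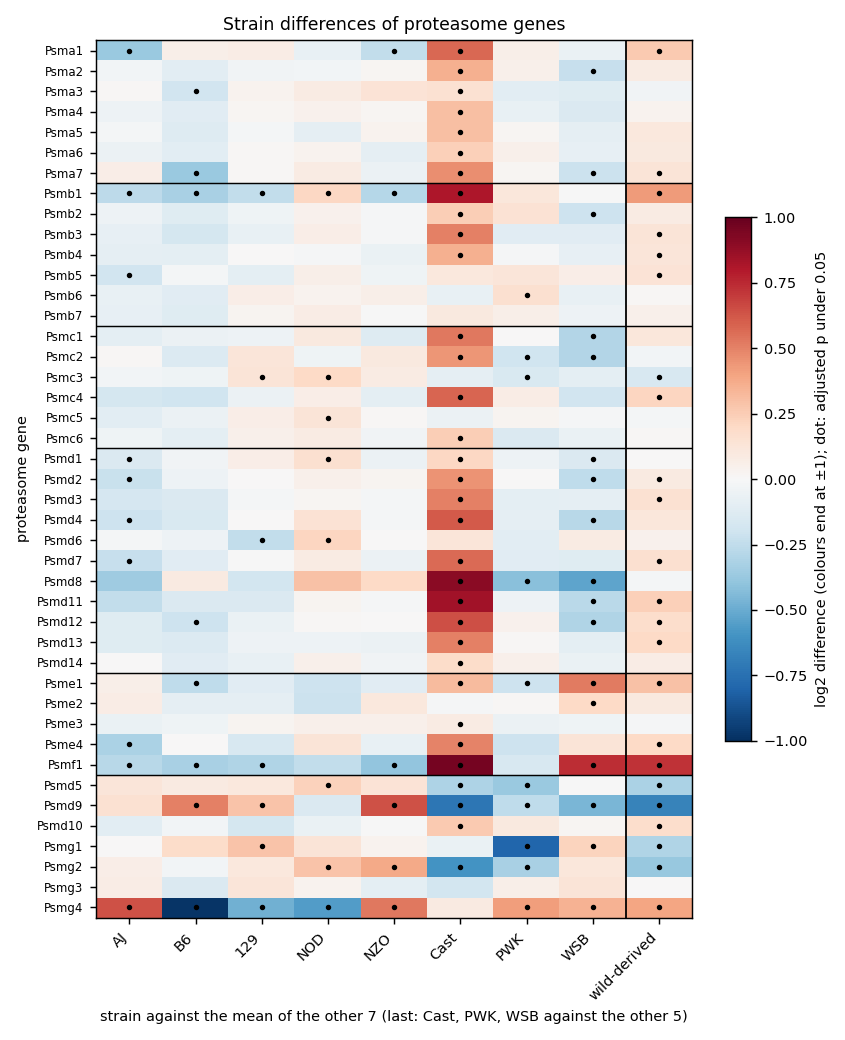
Difference of each strain from the mean of the other 7, and of the wild-derived strains from the classical ones, in log2 units, for the 43 genes (colours end at 1 in either direction; dots mark adjusted p under 0.05). The Cast column holds 33 dots, 30 of them on red cells. The column of WSB is blue through most 19S rows and red at Psme1 and Psmf1, and the Psmg4 row changes sign between classical strains.

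Further genes of the pathway were counted in lists. The shares of all genes to set beside the counts for Cast were 33.8% higher and 27.9% lower with all libraries and 25.9% and 25.7% without Cast_5 and Cast_6. Of 20 factors that bind or serve the proteasome, 15 were higher and 1 lower in Cast, and 8 and 2 without Cast_5 and Cast_6. Zfand5 (1.09, SE 0.13) and Nploc4 (1.07, SE 0.10) led, and both remained called without the pair, at 0.60 and 0.53. Ube3c, a ligase that extends ubiquitin chains on the proteasome, was the lower one (-0.34, SE 0.06). In the other strains at most 4 of the 20 were higher and at most 5 lower. Of all genes, 11.9% in NOD to 21.4% in WSB were higher there, and 9.79% in NOD to 20.3% in PWK lower. Of 11 regulators of subunit transcription, 6 were higher in Cast and 1 lower, and 3 and 1 without the pair. Maff, a small Maf partner of the NRF factors, led at 3.16 (SE 0.25), from libraries between 3.99 CPM in Cast_8 and 108 CPM in Cast_6.

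Nfe2l1 itself differed among the strains with an F of 37.6 (adjusted p = 1.20e-17). It was highest in NZO (730 ± 70.7 CPM, 0.44, SE 0.05) and B6 (671 ± 65.9 CPM, 0.31), and lower in PWK (424 ± 47.3 CPM, -0.45), WSB (-0.26), AJ (-0.23) and Cast (500 ± 54.9 CPM, -0.18). Nfyb, a subunit gene of NF-Y, ran from 17.4 ± 2.28 CPM in NZO to 34.8 ± 3.51 CPM in AJ. In the 20S and 19S sums Cast and NOD were the highest strains, with or without Cast_5 and Cast_6. WSB was the lowest for both once B6_5 was left out. The order rests on small distances. Without the pair, the 20S means of NOD (955 ± 29.3 CPM), PWK (945 ± 87.1 CPM) and Cast differed by less than their SDs. The WSB and AJ means also differed by less than their SDs for both sums. Of 6 genes for ubiquitin and its activating enzymes, 5 were higher in Cast and 1 lower, and 2 and 1 without the pair. Ubb, a polyubiquitin gene, had 1207 and 1161 CPM in Cast_5 and Cast_6, 861 CPM in Cast_1 and at most 672 CPM outside Cast. Of 15 muscle ubiquitin ligases, 7 were higher in Cast and 2 lower, and 3 and 1 without the pair. In AJ 1 was higher and 6 lower, where 16.8% and 14.9% of all genes were, among them Fbxo32 (-0.80, SE 0.21, adjusted p = 0.00234).

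The immunoproteasome genes, whose products replace the catalytic subunits in immune cells and under interferon, stood far below the standard ones. Psmb8, Psmb9 and Psmb10 summed to 7.94 ± 0.89 CPM in 129 up to 12.7 ± 1.97 CPM in AJ. Per 100 CPM of Psmb5, Psmb6 and Psmb7 the strain means ran from 3.03 in 129 to 5.20 in AJ and 5.22 in B6, where B6_1 alone had 11.8. Psmb9 was higher in B6 (0.71, SE 0.24, adjusted p = 0.0197) and AJ (0.68, SE 0.24, adjusted p = 0.0222). It was lower in Cast (-0.66, SE 0.28), but not without Cast_5 and Cast_6. In 129, Psmb8 (-0.77, SE 0.25) and Psmb9 (-0.75, SE 0.27) were lower. Psmb10 was not called in any strain. The library with the highest sum, B6_1 at 28.0 CPM, had the highest lymphocyte marker sum of all libraries. Of 21 interferon-stimulated genes, 14 were higher in B6 and 0 lower, 9 and 1 in NZO, 0 and 10 in 129 and 3 and 10 in Cast. Of all genes, 15.0% and 11.2% were higher and lower in B6, 14.6% and 12.7% in NZO, 14.2% and 11.4% in 129 and 33.8% and 27.9% in Cast. WSB, the strain with the highest Psme1, had 5 higher and 2 lower, where 21.4% and 17.0% of all genes were.

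Within strains, the genes of the particle varied together from library to library. After the strain means were taken off, the correlation over 61 libraries had a median of 0.80 over the 91 pairs of 20S genes, 0.77 over pairs of a 20S and a 19S gene and 0.76 over pairs of 19S genes. The median over all pairs of genes tested was near 0. The medians without Cast_5 and Cast_6 were 0.67, 0.65 and 0.66, and without B6_5 as well they were 0.57, 0.54 and 0.56, so part of the joint movement lay in those 3 libraries. These are descriptions across libraries that share depth and composition. Pairs of a 20S gene and a chaperone had a median of 0.25 with all libraries and 0.20 without the 3.

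The genes differed in how closely they followed the rest of the particle. With the mean of the other 20S and 19S genes, and without those 3 libraries, the correlation was highest for Psmb7 (0.89), Psmc2 (0.88) and Psmd1 (0.88). It was lowest in the particle for Psmd8 (0.24). Among the others, Psmf1 had 0.47, Psme1 -0.14 and Psmg3 about 0. The mean of the 20S and 19S genes had a correlation of -0.65 with the lymphocyte marker sum and -0.69 with the macrophage marker sum within strains, and of 0.41 with the muscle fibre sum, over the 58 libraries left. The part of other cell types in this joint movement was not tested.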

How the data were processed

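The members, gene lists and comparisons were chosen with earlier results of these data known. The authors deposited, for 61 libraries, a table of expected counts (estimated counts per gene, of which 80.4% were whole numbers) and a table of variance-stabilised values on a log2 scale (5.87 to 25.11). Per the labels' protocols, libraries were made from polyA-selected RNA. Per the submitters' processing notes, GRCm38 and DESeq2 were used. Neither the aligner nor the counting tool is given in the sources used here. The strain of a library was read from its title.

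Expected counts were rounded to whole numbers, genes were filtered with filterByExpr (16682 of 19462 kept), scaled by TMM and fitted in a single edgeR 4.0.16 quasi-likelihood model with strain as the factor (53 residual degrees of freedom, R 4.3.3). The fit was tested on simulated data. Contrasts were each strain against the mean of the other 7, and Cast, PWK and WSB against the other 5. The threshold was an adjusted p of 0.05. CPM used TMM-adjusted library sizes. Copies nearly identical in sequence were sought with BLAST 2.17.0 in GENCODE transcripts (at least 95% identity over 200 bases): 10 members had a copy, and 5 of these a copy with counts in the table. Promoters came from RefSeq. The 21 alternatives, 9 of them added after seeing the data, included DESeq2 1.42.0, limma 3.58.1 on the variance-stabilised values and other filters. They also included marker sums as covariates, Xist and Ddx3y as covariates, and leaving out libraries. Genes given with values were the 8 largest F, the 3 largest and 3 smallest called differences per contrast, the catalytic subunits and the regulators. Other genes were named after their values were seen.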

Additional observations from a re-analysis of the deposited data

Results flagged for a closer look

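Single libraries lay far from the rest of their strain in 24 of 216 strain and quantity combinations examined, where chance alone gives about 1 in 20. Over all 44 genes, the untested Psma8 among them, the same held in 39 of 352, of which 16 were B6_5 and 7 NZO_8.

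B6_5, the library with 46.3% of counts from Rn18s-rs5, was low throughout. Its summed 20S level was 607 CPM against 822 to 940 CPM in the other B6 libraries, and its summed chaperones 46.4 against 53.1 to 58.0 CPM. Psma1 had 31.6 CPM there against 46.7 to 58.5, Psma7 had 33.9 against 44.3 to 52.2, and Psmb6 had 49.9 against 62.9 to 71.2. Psmb7 stood at 85.6 CPM against 118 to 143, Psmd6 at 59.4 against 85.6 to 107, and Psme2 at 8.5 against 12.1 to 15.1.

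NZO_8 was low in the summed 19S genes, with 1504 CPM against 1751 to 1935 CPM, and in the summed chaperones, with 54.7 against 59.6 to 64.0 CPM. Psmb7 had 113 CPM against 132 to 147 in NZO, and Psmd12 had 70.3 against 87.1 to 97.2.

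Among the NOD libraries, NOD_4 was high for Psmd11, at 140 CPM against 93.5 to 102, and for Psmd5, at 23.0 against 14.8 to 17.2, and low for Psme1, at 16.0 against 19.8 to 22.3. NOD_5 was low for Psmc3, at 138 CPM against 153 to 161. The immunoproteasome sum was 12.5 CPM in NOD_3 against 7.28 to 9.34, and 28.0 CPM in B6_1 against 8.09 to 16.7.

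In Cast, Psmd5 had 19 CPM in Cast_5 against 9.41 to 12.8, and Psmg4 had 1.83 CPM in Cast_1 against 2.89 to 3.58. Psmd11 was high in 129_2, at 111 CPM against 83.5 to 95.9, and low in WSB_1, at 79.0 against 85.3 to 90.9. Psmg2 had 13.6 CPM in AJ_4 against 9.77 to 11.3. The ratio of the 19S to the 20S sum was 1.88 in WSB_9 against 1.77 to 1.81 in the other WSB libraries.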

How the results depend on the processing

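Of 47 strain differences that the rule for named genes picked, 44 kept their call in each of 21 alternatives run, and none changed sign. The 8 tests among strains with the largest F kept theirs. Other differences given in the text are outside this count. The exceptions were Psmc3 in 129 (0.11, adjusted p = 0.0545, with marker sums as covariates; 0.11, adjusted p = 0.0712, without the 7 libraries high in lymphocyte markers), Psmd8 in WSB (-0.39, adjusted p = 0.0992, without those 7) and Psmd12 in WSB (-0.19, adjusted p = 0.0728, with marker sums), all by edgeR's quasi-likelihood test. The count of members called in NOD went from 8 to 17, and of members called in Cast from 33 to 21, without Cast_5 and Cast_6. The members called in WSB went from 17 to 11 with marker sums and to 10 without the 7 libraries. The cause of these shifts was not tested. Leaving out a Cast library or B6_5, one at a time, gave 35 to 39 members differing among strains. The members called were then 28 to 35 in Cast, 17 to 19 in WSB, 10 to 12 in PWK, 11 to 13 in AJ, 7 to 11 in NOD, 6 to 9 in B6, 6 to 8 in NZO, 7 in 129 and 19 to 26 in the wild-derived contrast. Without Cast_5 alone, 31.9% of all genes were higher and 25.7% lower in Cast, and without Cast_6 alone 31.9% and 25.3%. For most other omissions the shares of all genes are not given, so those counts cannot be set against the background. Leaving out single libraries of other strains was not run.

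The replicate numbers of the titles do not say what they share. In AJ, B6, 129, NOD, NZO and Cast, libraries numbered 1 to 4 had Xist above Ddx3y, and those numbered 5 and up the reverse. WSB did the same except for WSB_9, and PWK did not. The number was thus tied in part to these transcripts, and the block fit below cannot separate them. Of 186 same-numbered pairs from different strains, 72 had deviations correlated above 0.1. The median correlation was 0.0108 in these pairs and 0.000335 in pairs with different numbers. For 11 of 61 libraries, the mean correlation with libraries of other strains was highest for their own number. With the replicate number as a block, 37 members differed among strains, and the members called were 34 for Cast, 17 for WSB, 12 for AJ, 10 for PWK, 9 for NOD, 8 for B6, 7 for 129, 6 for NZO and 20 for the wild-derived contrast. With near-identical copies added to their gene, 38 members differed among strains. The shares of all genes called in the block fit and the copy fit are not given here. At 17.1 M counts or more per library, the level of Psma8 could not be compared.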

Other observations

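Psmd8 and Psme4 followed the Y-linked transcript Ddx3y from library to library. Ddx3y was above Xist in 30 libraries and below it in 31, and the labels used here give no sex. With strain means taken off, the correlation with Ddx3y over 61 libraries was 0.81 for Psmd8, and 0.234% of all genes tested lay at least as far from 0. For Psme4 it was 0.65, with 1.71% of genes as far. These are descriptions found after looking at the data.

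In 6 of 8 strains every library with Ddx3y above Xist had more Psmd8 than every library with the reverse, which 0.563% of all genes showed as often. In AJ the former ran from 108 to 122 CPM of Psmd8 and the latter from 77.3 to 87.1, in B6 from 120 to 178 and from 89.3 to 112, and in 129 from 120 to 148 and from 70.6 to 89.3. In NOD they ran from 164 to 196 CPM and from 101 to 139, in PWK from 109 to 118 and from 74.3 to 88.0, and in WSB from 86.8 to 128 and from 60.9 to 77.2. The ranges overlapped in NZO and in Cast. For Psme4 the ranges stood apart in 4 strains, 129, NOD, PWK and WSB, and 2.34% of all genes did so in as many.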
